A study of Mus musculus with 11 samples.

Results

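The data described here are those of 10 ZIP transporter genes in type 1 conventional dendritic cells (cDC1s) sorted from B16 melanoma, a transplanted mouse tumor line. The genes were Slc39a1, Slc39a3, Slc39a6, Slc39a7, Slc39a8, Slc39a9, Slc39a10, Slc39a11, Slc39a13 and Slc39a14. They were chosen by family name and by being counted above the filter on low values. Slc39a7 was taken to have been singled out by its lower level in XBP1-deficient than in control cDC1s in earlier results of the same data. Whether other comparisons also entered that choice is not known. The count table held 24421 genes and 14 genes of the SLC39 family. The 10 listed genes were the family members among the 10951 genes that passed the filter of more than 1 CPM (a gene's counts scaled to a fixed library size) in at least 4 of 11 pools. For the comparison of compartments, Slc39a7, Slc39a9, Slc39a11 and Slc39a13 were taken as the 4 members of the ER and Golgi, and the other 6 as members of the plasma membrane, although ZIP8 and ZIP9 are known from more than 1 compartment.

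Bulk RNA-seq was performed on 11 pools, each holding 5000 to 20000 cDC1s sorted from the tumors of 2 to 4 mice on a C57BL/6 background, of both sexes and 6 to 14 weeks of age. All pools, controls included, carried floxed Xbp1 alleles. The 4 control pools had no Cre, and differed in that replicates 1 to 3 were XBP1fl/fl alone while replicate 4 also carried IRE1fl/fl alleles. The 4 XBP1ΔDC pools came from XBP1fl/fl CD11c-Cre mice, in which Cre removes exon 2 of Xbp1, and the 3 XBP1ΔDCIRE1truncDC pools came from XBP1fl/fl IRE1fl/fl CD11c-Cre mice, in which Cre also removes exons 20 to 21 of Ern1 and leaves an IRE1 protein without its RNase domain. The Itgax promoter that drives this Cre is active in CD11c+ cells in general, so the deletion need not have been limited to cDC1s or to the tumor. The labels do not say whether the pools of a group came from separate experiments, and p-values therefore measure the spread between these pools only.

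ZIP transporters of the SLC39 family move zinc into the cytosol, either from outside the cell or out of an organelle. Transporters of the SLC30 family, called ZnT, move it the other way, out of the cytosol. ZIP7, the product of Slc39a7, sits in the membrane of the ER and releases zinc from the ER and Golgi into the cytosol, a step that is set off by phosphorylation through the kinase CK2. XBP1 is the transcription factor made when the RNase of IRE1 splices Xbp1 mRNA under ER stress, and it is known for the transcription of genes of the secretory pathway.

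The gene of ZIP7 lies on mouse chromosome 17 (GRCm38, chr17:34028269-34031682, minus strand, GENCODE vM21, ENSMUSG00000024327.16), with 5 merged exons of 2584 bases in all. Promoter windows of 300 bases around the start site were taken from RefSeq (GRCm38.p6) and were searched on both strands for TGACGTGG, a core that XBP1 and ATF6 are known to bind, for CCACG, which is held within TGACGTGG on the opposite strand, and for CCAAT and CCACG separated by 9 bases. The windows of 3 genes are shown: Slc39a7 as the member that differed between genotypes, Slc39a13 as the member whose window held TGACGTGG, and Slc30a5 as the ZnT gene that also differed between genotypes. Capitals mark TGACGTGG and CCACG on either strand, so that CGTGG is CCACG read from the other strand.
Slc39a7 promoter, chr17:34031641-34031940, minus strand: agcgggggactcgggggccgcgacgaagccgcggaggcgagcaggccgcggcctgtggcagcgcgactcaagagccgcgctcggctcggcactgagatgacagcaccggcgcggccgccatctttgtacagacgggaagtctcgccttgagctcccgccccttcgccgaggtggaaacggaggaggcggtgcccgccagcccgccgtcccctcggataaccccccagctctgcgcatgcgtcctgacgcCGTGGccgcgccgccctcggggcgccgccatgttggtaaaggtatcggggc
Slc39a13 promoter, chr2:91070266-91070565, minus strand: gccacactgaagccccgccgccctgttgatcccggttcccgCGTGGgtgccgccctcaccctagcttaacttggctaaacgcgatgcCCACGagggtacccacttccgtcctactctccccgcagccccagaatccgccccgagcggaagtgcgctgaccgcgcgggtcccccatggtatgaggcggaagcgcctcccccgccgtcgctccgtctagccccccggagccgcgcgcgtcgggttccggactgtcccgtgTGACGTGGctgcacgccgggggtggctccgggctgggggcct
Slc30a5 promoter, chr13:100833378-100833677, minus strand: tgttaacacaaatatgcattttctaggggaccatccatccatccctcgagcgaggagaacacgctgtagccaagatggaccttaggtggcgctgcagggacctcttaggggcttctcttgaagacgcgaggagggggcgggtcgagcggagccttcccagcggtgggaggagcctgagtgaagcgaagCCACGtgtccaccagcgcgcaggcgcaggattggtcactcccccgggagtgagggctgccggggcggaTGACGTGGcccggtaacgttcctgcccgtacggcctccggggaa

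Counted from 1 at the 5′ end of the window, Slc39a7 held CCACG once, at positions 250 to 254 on the opposite strand and across the start site, and it held no TGACGTGG. TGACGTGG stood at positions 259 to 266 of the Slc39a13 window and at positions 257 to 264 of the Slc30a5 window, in both just downstream of the start site. The same motif stood at positions 199 to 206 of a window of Slc39a5, a gene with 0 counts in all pools. Searched windows of the ZnT genes Slc30a6 and Slc30a7 did not hold it. Windows were searched for 8 of the 10 members, with 11 windows between them. TGACGTGG was found in 1 of the 11 windows and in 0.676% of all 32851 promoter windows. CCACG was found in 6 of the 11 windows, which belonged to Slc39a3, Slc39a7, Slc39a8, Slc39a11 and Slc39a13, and in 32.8% of all windows. The spaced pair of CCAAT and CCACG was found in none of the 11 windows and in 0.119% of all windows. These matches describe letters in a window and do not show binding.

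Depth was alike across the pools, with 21089065 to 26843486 counts in each. The summed level of 10 cDC1 markers, among them Xcr1, Clec9a and Batf3, lay between 8309 and 10029 CPM in every pool. Of the markers of 7 other cell types, the melanoma list summed to 8.96 to 60.9 CPM in control pools, 12.2 to 64.7 CPM in XBP1ΔDC pools and 8.74 to 11.02 CPM in XBP1ΔDCIRE1truncDC pools, the macrophage and monocyte list to at most 88.2 CPM, the cDC2 list to at most 68.1 CPM, and the T cell, B cell, NK cell and neutrophil lists to at most 7.82, 2.76, 3.67 and 1.56 CPM in any pool. Xbp1 itself, whose counts cannot separate intact transcripts from those without the deleted exon, was at 244 to 271 CPM in control, 130.1 to 165 CPM in XBP1ΔDC and 179 to 236 CPM in XBP1ΔDCIRE1truncDC pools. Ern1, read with the same limit, was at 9.82 to 19.0, 9.74 to 15.6 and 17.0 to 26.0 CPM in the same order. In bulk pools, fewer cells of a type and less RNA per cell cannot be told apart.

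Slc39a7 was the most abundant ZIP transcript in control cDC1s. Per kilobase of exon, which is the scale used here to compare genes, it averaged 53.0 ± 1.31 CPM per kb (SD, n = 4). Slc39a11, for the Golgi transporter ZIP11, came next at 18.4 ± 0.615, and Slc39a6, for the plasma membrane transporter ZIP6, followed at 10.5 ± 1.31 CPM per kb. Both gaps were free of overlap between control pools. Slc39a3, Slc39a10 and Slc39a9 stood close together at 6.21 ± 1.13, 6.12 ± 0.774 and 5.30 ± 0.666 CPM per kb, and the pools of neighbours in this order overlapped. Slc39a13 at 2.78 ± 0.654 and Slc39a1 at 1.82 ± 0.333 CPM per kb overlapped as well. Slc39a14 at 0.977 ± 0.185 and Slc39a8 at 0.400 ± 0.0920 CPM per kb ended the order, each apart from the gene above it. The per-kilobase level of Slc39a7 carries an uncertainty, since 80.7% of its exon bases are shared with Gm20427, an annotated read-through transcript on the same strand that was not analysed here, and the sources used here do not say how counting treated shared bases.

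**Figure D1:**
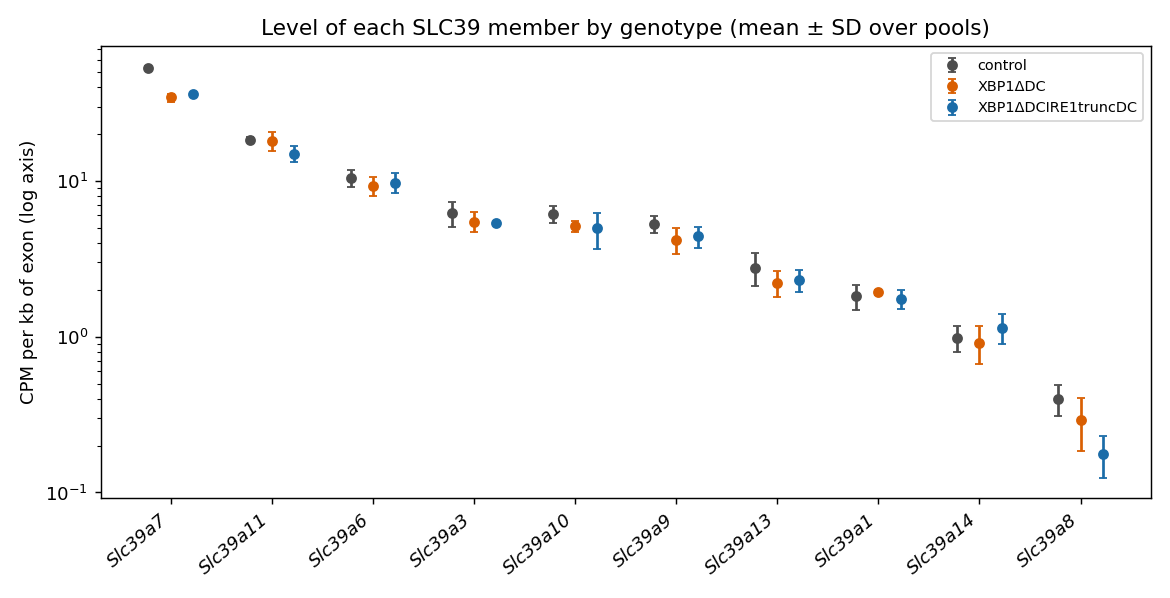
Mean CPM per kb of exon (log axis, bars SD over pools) for the 10 SLC39 members in control (n = 4), XBP1ΔDC (n = 4) and XBP1ΔDCIRE1truncDC (n = 3) pools, in the order of the control level. Slc39a7 stands at the top in each genotype, at 53.0, 34.4 and 36.3 CPM per kb, and Slc39a8 at the bottom, at 0.400, 0.293 and 0.177 CPM per kb.

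Slc39a7 supplied 50.2% ± 1.32 (SD, n = 4) of the summed CPM per kb of the 14 family genes in control pools. The share was 41.8% ± 1.52 (n = 4) in XBP1ΔDC and 44.6% ± 1.33 (n = 3) in XBP1ΔDCIRE1truncDC pools, and its lowest control value of 48.9% lay above the highest value of 46.1% in any Cre-positive pool. The share is built from the Slc39a7 level, so its difference in XBP1ΔDC pools is not separate from the value that singled the gene out. The share also carries the uncertainty of that level over bases shared with Gm20427. The rest of the family summed to 52.6 ± 1.72, 47.9 ± 3.002 and 45.2 ± 2.38 CPM per kb in the same order, so that the sum over the family without Slc39a7 was also lower on average in both Cre-positive groups.

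The 4 family genes outside the list did not pass the filter. Slc39a2, for a ZIP transporter known from skin, was just outside the filter at 0 to 1.86 CPM, above 1 CPM in 1 XBP1ΔDC and 2 XBP1ΔDCIRE1truncDC pools and at most at 0.373 CPM in controls. Slc39a4, for the intestinal zinc importer lost in acrodermatitis enteropathica, was at 0 to 0.679 CPM. Slc39a5, for a transporter of pancreas and gut, and Slc39a12, for one of brain, had 0 counts in all 11 pools, which allows up to 3 counts or 0.111 to 0.140 CPM per pool for counting error alone. Just inside the filter, Slc39a8 ranged from 1.12 to 3.78 CPM and Slc39a1 from 3.67 to 5.47 CPM.

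Slc39a7 was at 139.6, 139.7, 135.5 and 132.8 CPM in the 4 control pools. It was at 87.5, 93.4, 92.4 and 81.8 CPM in the 4 XBP1ΔDC pools and at 94.1, 92.9 and 94.1 CPM in the 3 XBP1ΔDCIRE1truncDC pools. Every control pool lay above every Cre-positive pool, and the 2 Cre-positive groups overlapped in range. The values rested on 1931 to 3774 counts per pool, and the coefficient of variation within a group was between 0.719% and 5.98%. In XBP1ΔDC against control, the comparison that singled the gene out, the log2 fold change was -0.63 (SE 0.0655), or a change of -35.2%, given as a description with no test. In XBP1ΔDCIRE1truncDC against control, the change was -31.6%, a log2 fold change of -0.55 (SE 0.0713, 95% interval -0.70 to -0.39), with an adjusted p of 0.00551 in edgeR's quasi-likelihood test with Benjamini-Hochberg adjustment over all 10951 genes. This comparison used other Cre-positive pools but the same control pools as the one that singled the gene out, so its p is not independent of that choice. Its fold fell short of the 1.5-fold threshold of the study. Between XBP1ΔDCIRE1truncDC and XBP1ΔDC pools, the log2 difference in Slc39a7 was 0.08 (SE 0.0706, 95% interval -0.07 to 0.23, edgeR adjusted p = 0.970). With the melanoma marker level as a covariate, the log2 fold change of Slc39a7 in XBP1ΔDCIRE1truncDC against control was -0.60 (edgeR adjusted p = 0.00781), which passed 1.5-fold. No other setting passed 1.5-fold in this comparison. The melanoma list summed to 8.96 to 60.9 CPM in control and 8.74 to 11.02 CPM in XBP1ΔDCIRE1truncDC pools, so covariate and genotype are not fully separate here.

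**Figure D2:**
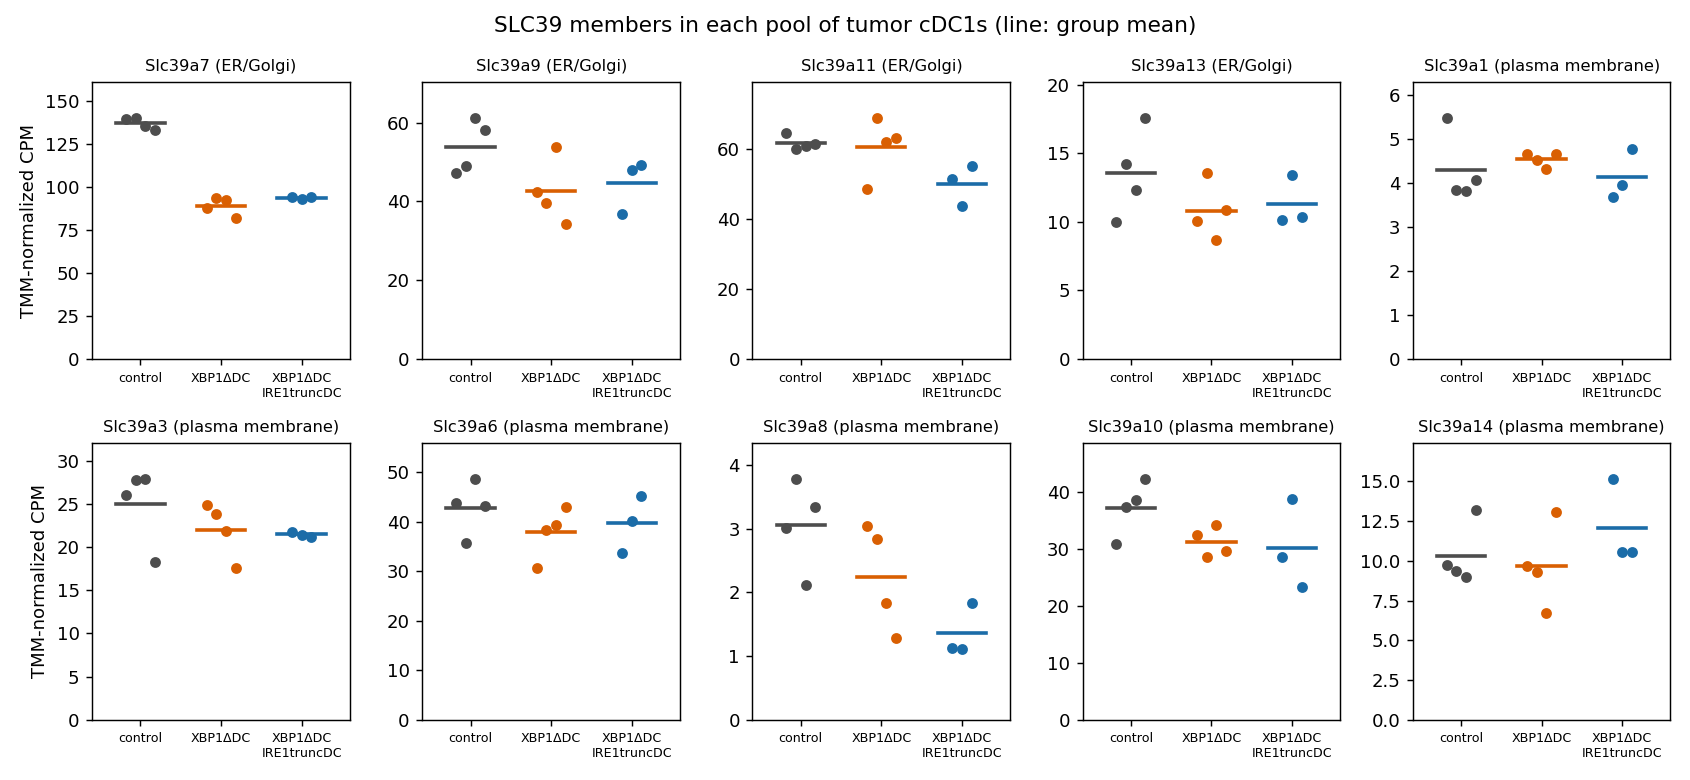
TMM-normalized CPM of each SLC39 member in each pool (points; line, group mean; each axis from 0), with ER and Golgi members first. The 4 control values of Slc39a7 lie between 132.8 and 139.7 CPM and its 7 Cre-positive values between 81.8 and 94.1 CPM, whereas the groups of Slc39a9, Slc39a13, Slc39a1, Slc39a3, Slc39a6, Slc39a10 and Slc39a14 overlap in all 3 comparisons.

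The genes on either side of Slc39a7 did not differ past the test. Rxrb, for a nuclear receptor of retinoids, starts 130 bases upstream on the opposite strand, and H2-Ke6, for a steroid dehydrogenase, starts 3622 bases downstream of the Slc39a7 start on the same strand. Rxrb was at 76.2 to 87.3 CPM in control, 67.7 to 83.7 CPM in XBP1ΔDC and 75.2 to 88.8 CPM in XBP1ΔDCIRE1truncDC pools, with log2 fold changes from control of -0.07 (SE 0.0901) and 0.02 (SE 0.0973). H2-Ke6 was at 25.4 to 35.5, 25.7 to 33.7 and 22.8 to 27.2 CPM in the same order, with log2 fold changes from control of -0.08 (SE 0.133) and -0.28 (SE 0.144). The groups overlapped for both neighbours, and the smallest edgeR adjusted p of the 4 values was 0.507. The read-through transcript Gm20427 also covers exons of H2-Ke6, among them the whole of the exon at 3622 to 4479 bases downstream. The counts of H2-Ke6 therefore carry the same uncertainty about shared bases as those of Slc39a7.

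**Figure D3:**
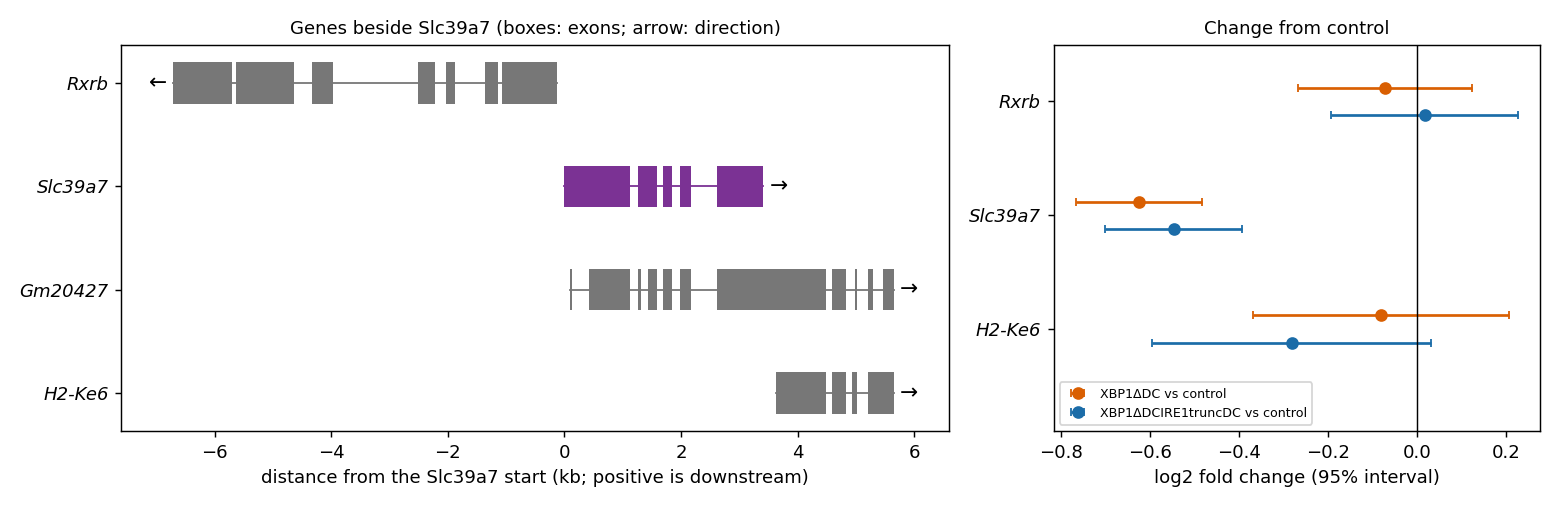
Left, exons (boxes) of Slc39a7 and its neighbours by distance from the Slc39a7 start in kb, with arrows for the direction of transcription. Right, log2 fold changes from control with 95% intervals. Slc39a7 is at -0.63 in XBP1ΔDC, the value by which it was singled out and for which no test is given, and at -0.55 in XBP1ΔDCIRE1truncDC, beside -0.07 and 0.02 for Rxrb and -0.08 and -0.28 for H2-Ke6.

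The other 3 members of the ER and Golgi did not pass the adjusted test in any comparison. Slc39a9 codes for ZIP9, a transporter of the Golgi that is also known as a membrane androgen receptor. It was at 47.3, 48.9, 61.1 and 58.0 CPM in control pools, at 42.4, 39.7, 53.8 and 34.3 CPM in XBP1ΔDC pools and at 36.8, 48.0 and 49.3 CPM in XBP1ΔDCIRE1truncDC pools. XBP1ΔDC replicate 3 lay within the control range and its other 3 pools lay below all controls. The log2 fold change of Slc39a9 was -0.34 (SE 0.148, edgeR unadjusted p = 0.0395, adjusted p = 0.626) in XBP1ΔDC and -0.27 (SE 0.160, edgeR adjusted p = 0.593) in XBP1ΔDCIRE1truncDC against control.

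Slc39a11 was at 64.7, 60.0, 60.8 and 61.6 CPM in control pools, at 48.5, 68.8, 62.1 and 63.1 CPM in XBP1ΔDC pools and at 51.3, 43.7 and 55.2 CPM in XBP1ΔDCIRE1truncDC pools. The XBP1ΔDCIRE1truncDC pools were all below the controls, and XBP1ΔDC replicate 1 was alone among the XBP1ΔDC pools in lying with them. The log2 fold change was -0.03 (SE 0.1102) in XBP1ΔDC against control. It was -0.30 (SE 0.12, edgeR unadjusted p = 0.0259, adjusted p = 0.355) in XBP1ΔDCIRE1truncDC against control, and -0.28 (SE 0.12, edgeR unadjusted p = 0.0394, adjusted p = 0.931) between the 2 Cre-positive groups.

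Slc39a13 codes for ZIP13, a transporter of the Golgi and its vesicles that is mutated in a form of Ehlers-Danlos syndrome. It was the member whose window held TGACGTGG. Its level was 10.004, 14.2, 12.4 and 17.5 CPM in control pools, 10.1, 13.6, 8.69 and 10.8 CPM in XBP1ΔDC pools and 10.2, 13.4 and 10.3 CPM in XBP1ΔDCIRE1truncDC pools. All 3 groups overlapped, with log2 fold changes from control of -0.33 (SE 0.199) and -0.26 (SE 0.216) and edgeR adjusted p of 0.799 and 0.735. Of its 4869 exon bases, 215 overlap Psmc3 on the opposite strand, and 459 of the 10155 exon bases of Slc39a9 overlap Erh in the same way. The library kit, SMART-seq v4, does not mark strand, so reads on these bases cannot be assigned to either gene.

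Among the 6 plasma membrane members, Slc39a8 had the largest fold change and the lowest level. ZIP8 carries zinc, manganese and cadmium and is found at the plasma membrane and in lysosomes. Slc39a8 was at 3.01, 3.78, 2.11 and 3.35 CPM in control pools, at 3.03, 2.84, 1.84 and 1.28 CPM in XBP1ΔDC pools and at 1.13, 1.12 and 1.83 CPM in XBP1ΔDCIRE1truncDC pools. The XBP1ΔDCIRE1truncDC pools lay below all controls, and the XBP1ΔDC pools spanned both. The log2 fold change was -1.17 (SE 0.416, 95% interval -2.07 to -0.27, edgeR unadjusted p = 0.0149, adjusted p = 0.311) in XBP1ΔDCIRE1truncDC and -0.45 (SE 0.370, edgeR adjusted p = 0.901) in XBP1ΔDC against control. These values rested on 24 to 102 counts per pool.

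Slc39a10 and Slc39a6 code for ZIP10 and ZIP6, a pair of related zinc importers that can form a complex. Slc39a10 was at 30.9, 37.4, 38.6 and 42.3 CPM in control pools, at 32.4, 28.7, 34.1 and 29.7 CPM in XBP1ΔDC pools and at 28.5, 38.9 and 23.3 CPM in XBP1ΔDCIRE1truncDC pools. Slc39a6 was at 43.8, 35.7, 48.6 and 43.1 CPM in control pools, at 30.7, 38.3, 39.3 and 43.0 CPM in XBP1ΔDC pools and at 33.6, 40.2 and 45.2 CPM in XBP1ΔDCIRE1truncDC pools. The groups of both genes overlapped. The log2 fold changes from control were -0.26 (SE 0.150) and -0.30 (SE 0.163) for Slc39a10 and -0.18 (SE 0.134) and -0.11 (SE 0.145) for Slc39a6, none with an edgeR adjusted p below 0.536.

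Slc39a3 and Slc39a1 code for ZIP3 and ZIP1, which take up zinc at the cell surface. Slc39a3 was at 26.0, 27.7, 27.9 and 18.3 CPM in control pools, at 24.9, 23.8, 21.8 and 17.6 CPM in XBP1ΔDC pools and at 21.7, 21.4 and 21.2 CPM in XBP1ΔDCIRE1truncDC pools. Control replicate 4, the pool with floxed Ern1, and XBP1ΔDC replicate 4 were its 2 lowest pools. Slc39a1 was at 5.47, 3.85, 3.81 and 4.06 CPM in control pools, at 4.66, 4.53, 4.33 and 4.66 CPM in XBP1ΔDC pools and at 3.67, 3.96 and 4.78 CPM in XBP1ΔDCIRE1truncDC pools. Their log2 fold changes from control lay between -0.22 and 0.08, and every edgeR adjusted p was at least 0.700.

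Slc39a14 codes for ZIP14, a carrier of zinc, iron and manganese that is prominent in liver. It was at 9.71, 9.33, 8.998 and 13.2 CPM in control pools, at 9.65, 9.28, 6.74 and 13.04 CPM in XBP1ΔDC pools and at 15.1, 10.5 and 10.6 CPM in XBP1ΔDCIRE1truncDC pools. The highest value was in XBP1ΔDCIRE1truncDC replicate 1, and the groups overlapped. The log2 fold change was -0.09 (SE 0.220) in XBP1ΔDC and 0.23 (SE 0.236) in XBP1ΔDCIRE1truncDC against control, and 0.32 (SE 0.236) between the Cre-positive groups, with edgeR adjusted p of 0.977, 0.800 and 0.967.

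In XBP1ΔDC against control, the comparison that the choice of Slc39a7 used, 0.493% of all genes tested passed both an adjusted p under 0.05 and 1.5-fold and 0.895% passed the adjusted p alone. Slc39a7 was chosen for its value there and nothing is read from its count, and 0 of the 9 other members passed either rule in edgeR, with 1 of them, Slc39a9, at an unadjusted p under 0.05 (7.62% of all genes). In XBP1ΔDCIRE1truncDC against control, 0 of 10 members passed both thresholds (0.21% of all genes) and 1 of 10, Slc39a7, passed the adjusted p (0.356% of all genes) in edgeR. For Slc39a7 this call used the same control pools as the comparison that singled it out. Between the Cre-positive groups, 0 of 10 members passed either rule (0.0731% of all genes for both) in edgeR, and 1 member, Slc39a11, had an unadjusted p under 0.05 (5.29% of all genes). In XBP1ΔDCIRE1truncDC against control, an unadjusted p under 0.05 was reached by Slc39a7, Slc39a8 and Slc39a11 (11.2% of all genes). DESeq2 and limma voom, run as alternatives, gave the same numbers of members for both rules in all 3 comparisons.

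The log2 fold change was below 0 for 9 of 10 members in XBP1ΔDC against control, and for 9 of 10 members in XBP1ΔDCIRE1truncDC against control. In the first, Slc39a11 stood at 0.0031 under scaling to library size alone. With a single pool left out, Slc39a11 reached 0.066 and Slc39a14 reached 0.053 there. In the second, Slc39a6 stood at 0.0027 with the melanoma covariate, and Slc39a1 reached 0.082 with a single pool left out. Without Slc39a7, whose direction in XBP1ΔDC against control was fixed by its choice, 8 of 9 members were below 0 in each of the 2 comparisons. Of all genes, 48.8% and 50.6% were below 0 in these comparisons. Both comparisons used the same 4 control pools. The median log2 fold change of the members was -0.22 and -0.26, and without Slc39a7 it was -0.18 and -0.26, beside medians of 0.0050 and -0.0031 over all genes. Between the Cre-positive groups, 5 of 10 members were below 0 and the median was 0.02.

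By compartment, the 4 ER and Golgi members had a median log2 fold change of -0.33 in XBP1ΔDC and -0.29 in XBP1ΔDCIRE1truncDC against control. The 6 plasma membrane members had medians of -0.18 and -0.16. The ER and Golgi median minus the plasma membrane median was -0.15 and -0.12 on the log2 scale. Without Slc39a7, the 3 remaining ER and Golgi members had medians of -0.33 and -0.27. Between the Cre-positive groups, the medians were 0.07 for the ER and Golgi and -0.04 for the plasma membrane. The difference between compartments in XBP1ΔDC against control moved from -0.26 without control replicate 1 to -0.05 without XBP1ΔDC replicate 4, and with 4 and 6 genes it is given as a description.

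**Figure D4:**
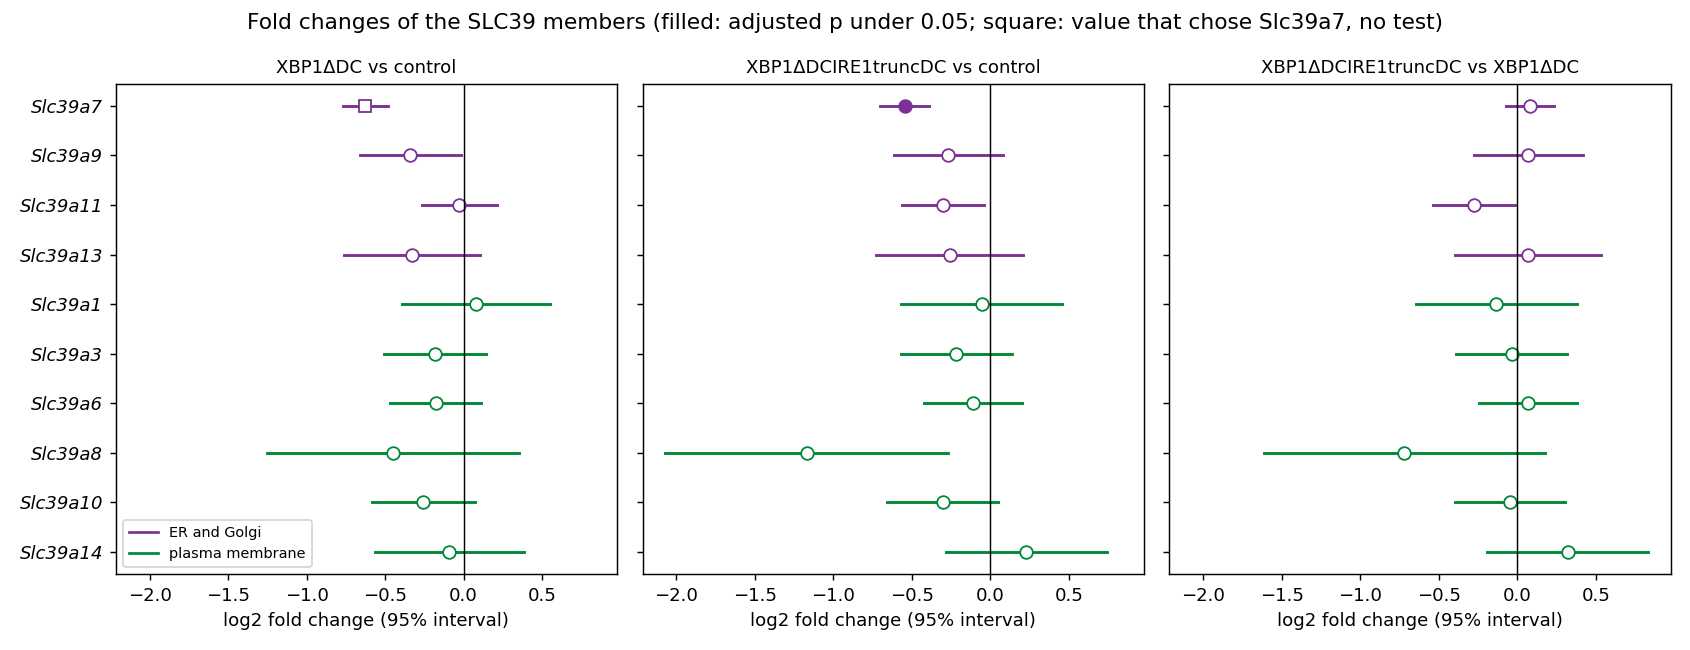
Log2 fold change of each SLC39 member with its 95% interval in the 3 comparisons, with ER and Golgi members in purple and plasma membrane members in green. Slc39a7 lies at -0.63 and -0.55 against control and at 0.08 between the Cre-positive groups, and the square marks the value by which it was singled out, for which no test is given.

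The remaining zinc genes were read from 3 lists. Of 10 ZnT genes, 6 passed the filter, and 1 of these, Slc30a5, passed the adjusted p in XBP1ΔDC against control (0.895% of all genes), without reaching 1.5-fold. ZnT5, its product, loads zinc into the early secretory pathway together with ZnT6. Slc30a5 was at 88.3, 93.1, 81.3 and 84.5 CPM in control pools, at 56.6, 64.4, 60.7 and 64.8 CPM in XBP1ΔDC pools and at 73.9, 62.0 and 65.5 CPM in XBP1ΔDCIRE1truncDC pools. Both Cre-positive groups lay below all controls and overlapped each other. The log2 fold change from control was -0.49 (SE 0.0833, edgeR adjusted p = 0.0114) in XBP1ΔDC and -0.37 (SE 0.0904, edgeR unadjusted p = 0.00133, adjusted p = 0.129) in XBP1ΔDCIRE1truncDC pools. The first call was lost without control replicate 2, with an edgeR adjusted p of 0.0517, and the second was gained in DESeq2, with an adjusted p of 0.0207. The difference between the Cre-positive groups was 0.12 (SE 0.0898, 95% interval -0.07 to 0.32).

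Slc30a6, for ZnT6, was at 17.2 to 20.3 CPM in control, 16.2 to 22.3 CPM in XBP1ΔDC and 13.3 to 20.4 CPM in XBP1ΔDCIRE1truncDC pools, and its groups overlapped. Slc30a7 codes for ZnT7 of the Golgi. It was at 60.1 to 65.1 CPM in control, 51.3 to 62.1 CPM in XBP1ΔDC and 38.0 to 58.2 CPM in XBP1ΔDCIRE1truncDC pools, with a log2 fold change of -0.32 (SE 0.131, edgeR unadjusted p = 0.0320, adjusted p = 0.383) in XBP1ΔDCIRE1truncDC against control. Slc30a9 codes for ZnT9 of mitochondria. It was at 24.5 to 31.0, 20.4 to 27.5 and 27.9 to 39.5 CPM in the same order, and the 2 Cre-positive groups did not overlap, with a log2 difference of 0.46 (SE 0.155, edgeR unadjusted p = 0.0111, adjusted p = 0.696). Slc30a1, for the zinc exporter of the plasma membrane, was at 8.04 to 19.4, 8.33 to 14.2 and 15.9 to 18.4 CPM in the same order, again without overlap between the Cre-positive groups (log2 difference 0.50, SE 0.269, edgeR adjusted p = 0.967).

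No gene of the other lists passed the adjusted test or an unadjusted p under 0.05 in edgeR in any comparison. Of 5 genes of zinc storage and sensing, 3 passed the filter. Mt1 and Mt2 code for metallothioneins, which bind zinc in the cytosol, and Mtf1 for the transcription factor that senses zinc and switches them on. Mt1 was at 53.1 to 80.1 CPM in control, 51.9 to 75.3 CPM in XBP1ΔDC and 44.1 to 75.6 CPM in XBP1ΔDCIRE1truncDC pools, and its log2 fold changes from control were -0.06 (SE 0.174) and -0.12 (SE 0.188). Mt2 was at 1.85 to 6.17 CPM over the 11 pools and shares 73.5% of its exon bases with the antisense gene Gm45774, so its reads cannot be assigned to either strand. Mtf1 was at 34.9 to 39.0, 32.2 to 48.3 and 36.7 to 46.3 CPM in the same order of groups, with log2 fold changes from control of 0.17 (SE 0.124) and 0.22 (SE 0.134). The 3 subunits of CK2, Csnk2a1, Csnk2a2 and Csnk2b, had log2 fold changes between -0.05 and 0.18 in all 3 comparisons.

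**Figure D5:**
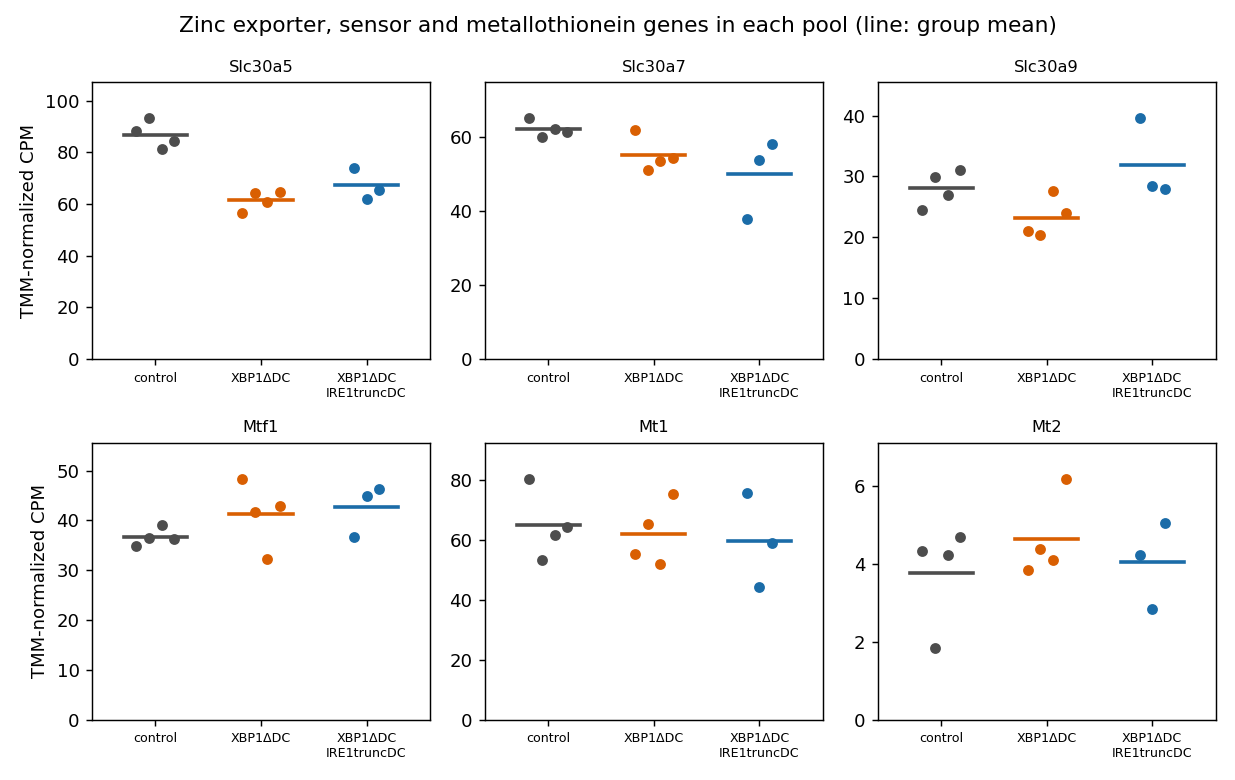
TMM-normalized CPM of 3 ZnT genes, Mtf1, Mt1 and Mt2 in each pool (points; line, group mean; each axis from 0). The controls of Slc30a5 lie between 81.3 and 93.1 CPM and its Cre-positive pools between 56.6 and 73.9 CPM, whereas the groups of Mtf1, Mt1 and Mt2 overlap.

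Over the 11 pools, the 5 genes outside the family with the highest Pearson correlation with Slc39a7, in log2 CPM, were Sec61b (r = 0.980), Txndc11 (0.980), Tram1 (0.976), Ostc (0.976) and Spcs3 (0.975). Their log2 fold changes from control were -0.81 and -0.81 for Sec61b, -1.01 and -0.91 for Txndc11, -0.54 and -0.51 for Tram1, -0.53 and -0.56 for Ostc and -0.61 and -0.56 for Spcs3, in XBP1ΔDC and XBP1ΔDCIRE1truncDC pools. These genes were picked out of all genes tested by that correlation, which holds the difference between genotypes within it. Within the family, the correlation of the 9 other members with Slc39a7 over the same pools ran from -0.13 for Slc39a1 to 0.64 for Slc39a9. With the group means taken away it ran from -0.68 for Slc39a14 to 0.63 for Slc39a3. For the 5 genes outside the family, the correlation with group means taken away ran from 0.61 for Txndc11 to 0.81 for Ostc. These values are not free of the choice, since deviations within groups entered the correlation that picked the 5 genes. The members were not picked by correlation, so the ranges cannot be compared.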

How the data were processed

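cDC1s sorted from B16 tumors were profiled by bulk RNA-seq as 11 pools. Per the study's methods, RNA was pre-amplified with SMART-seq v4, single-end reads were trimmed with Trimmomatic 0.39 and checked with FastQC 0.11.8, mapped with STAR 2.7.3a and counted per gene with HTSeqCount, and the submitters' processing notes name the mm10 build. The annotation and the strand setting of the counting are not given in the sources used here. The authors deposited raw counts per gene, which are the values used here, and a log2 table, normalized by the authors with limma 3.42.2, which served in 1 alternative only.

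Genes above 1 CPM in at least 4 pools (10951 of 24421) were scaled by TMM and tested in 1 fit of the 3 groups with edgeR 4.0.16 (R 4.3.3), by its quasi-likelihood test, and p-values were adjusted by Benjamini-Hochberg across all of them. Calls used an adjusted p under 0.05, with and without a fold change above 1.5. Log2 CPM for the correlations and the melanoma covariate used a prior count of 2. Fold changes were those of the edgeR fit, to which this prior count was not passed. CPM were divided by the exon length of the gene in GENCODE vM21 for comparisons between genes. The procedure was tested on simulated data with changes set in the XBP1ΔDC pools only, all larger than that of Slc39a7. Changes as small as those of most members were not covered. The pools held 21089065 to 26843486 counts, and no 2 pools of a group were copies of each other. Intervals cover counting error and the spread between pools as the fit estimates them.

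The members and lists were chosen with earlier results of these data known. Named were the 10 members, the other SLC39 genes, Xbp1 and Ern1, any gene of the ZnT, zinc storage and sensing and CK2 lists with an adjusted p under 0.05 and the 3 of each list with the smallest unadjusted p, the 5 genes most alike to Slc39a7, and neighbours or overlapping genes. Slc30a1 and Slc30a6 were named after their values were seen. Alternatives were DESeq2 1.42.0, limma voom and limma-trend (3.58.1), robust dispersion, 2 other scalings, 3 other filters, a replicate block, the melanoma marker level as a covariate, fits of only the 2 groups compared, and each pool left out in turn. Their use for genes outside the members was added after seeing the data.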

Additional observations from a re-analysis of the deposited data

Results flagged for a closer look

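Of 46 pairs of a gene and a group of 4 pools examined, 3 held a pool that stood apart from the other 3 by Dixon's criterion at the 95% level, which chance alone meets in about 1 in 20 groups. Slc39a1 was at 5.47 CPM in control replicate 1 and at 3.81 to 4.06 CPM in the other controls. Slc39a14 was at 13.2 CPM in control replicate 4, the control pool with floxed Ern1 alleles, and at 8.998 to 9.71 CPM in the other controls. Mt2 was at 1.85 CPM in control replicate 2 and at 4.23 to 4.69 CPM in the other controls.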

How the results depend on the processing

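Under 23 other settings, 673 of 690 values of the members kept their direction and their side of the threshold, and 17, all with an adjusted p over 0.05, changed sign. Slc39a7 had log2 fold changes from control of -0.65 to -0.59 in XBP1ΔDC pools, and of -0.60 to -0.54 in XBP1ΔDCIRE1truncDC pools with an adjusted p of at most 0.0398 in all 23 settings. For genes outside the members, 30 of 897 values changed sign, 2 lost and 2 gained a call. The number of members past both thresholds in XBP1ΔDCIRE1truncDC against control was 1 with the melanoma covariate and 0 in the main analysis. The difference between compartment medians in XBP1ΔDC against control ran from -0.26 to -0.050 with single pools left out. Over all genes, the calls past both thresholds numbered 54, 23 and 8 in the 3 comparisons in edgeR and 75, 95 and 36 in DESeq2. They ran from 37 to 57, 12 to 23 and 4 to 10 with single pools left out, and were 15 in XBP1ΔDCIRE1truncDC against control in a fit of those 2 groups alone and 4 between the Cre-positive groups with the melanoma covariate.

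Signs turned for Slc39a11 (XBP1ΔDC against control, library size scaling, 0.0031), Slc39a6 (XBP1ΔDCIRE1truncDC against control, melanoma covariate, 0.0027) and, between the Cre-positive groups, Slc39a10 (melanoma covariate, 0.039), Mt2 (melanoma covariate, 0.079) and Csnk2a1 (library size scaling -0.016, replicate block -0.026, melanoma covariate -0.032). With single pools left out, log2 fold changes in XBP1ΔDC against control ran from -0.27 to 0.053 for Slc39a14, -0.092 to 0.066 for Slc39a11, -0.17 to 0.055 for Mt1, -0.31 to 0.0095 for Ern1, -0.16 to 0.00025 for H2-Ke6, -0.12 to 0.0093 for Csnk2a1 and -0.040 to 0.12 for Csnk2a2. In XBP1ΔDCIRE1truncDC against control they ran from -0.17 to 0.082 for Slc39a1, -0.043 to 0.076 for Rxrb, -0.13 to 0.30 for Mt2, -0.14 to 0.10 for Csnk2a1, -0.33 to 0.057 for Mt1 and -0.011 to 0.32 for Csnk2a2. Between the Cre-positive groups they ran from -0.13 to 0.028 for Slc39a3, -0.037 to 0.18 for Slc39a6, -0.021 to 0.20 for Slc39a9, -0.27 to 0.11 for Slc39a10, -0.075 to 0.21 for Slc39a13, -0.072 to 0.055 for Csnk2b, -0.097 to 0.15 for Csnk2a1, -0.079 to 0.26 for Csnk2a2, -0.058 to 0.14 for Mtf1, -0.26 to 0.12 for Mt1 and -0.27 to 0.020 for Slc30a7. The cause of these turns was not tested.

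Pools with the same replicate number did not deviate together beyond 0.1 in every pair (mean correlation 0.0979, 0.0035 and -0.22 in the 3 comparisons), so the numbers were not taken to pair the pools. In the fit with a replicate block, the log2 fold change of Slc39a7 was -0.63 in XBP1ΔDC and -0.57 in XBP1ΔDCIRE1truncDC against control (adjusted p = 0.0363 in edgeR for the latter), Slc30a5 in XBP1ΔDC had an edgeR adjusted p of 0.0681, and the calls past both thresholds over all genes numbered 40, 11 and 3. Slc39a8 had the fewest counts of the members, with 24 to 102 per pool.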

Other observations

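Slc30a4, for the ZnT4 transporter of endosomes and vesicles, was the ZnT gene of the tested 6 not described above. It was at 36.9, 28.7, 46.9 and 33.7 CPM in control pools, at 40.7, 26.7, 36.1 and 39.5 CPM in XBP1ΔDC pools and at 43.2, 33.4 and 32.9 CPM in XBP1ΔDCIRE1truncDC pools, with overlap of all groups and log2 fold changes from control of -0.03 (SE 0.170) and -0.00093 (SE 0.183).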
